A study of Mus musculus with 8 samples.

Results

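Voltage-gated sodium channel alpha subunits are large membrane proteins that form the pore through which sodium enters a neuron during an action potential. The 9 genes Scn1a, Scn2a, Scn3a, Scn4a, Scn7a, Scn8a, Scn9a, Scn10a and Scn11a were followed in mouse dorsal root ganglia (DRG), where somatosensory neurons lie among their glia. They were taken by gene identity and not by their values. They are 9 of the 55414 genes listed in each count table, and all 9 were among the 17721 genes with enough reads to be tested.

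Bulk RNA was sequenced from DRG of mouse embryos at E18.5, late in gestation, in 2 groups of 4 libraries. AD1 OE embryos had the genotype AdvillinCre/+;Rosa26Dach1/+, in which Cre made from Advillin, a gene of postmitotic sensory neurons, removes a stop cassette and lets a Dach1 transgene be expressed from the Rosa26 locus together with EGFP. Control embryos had the genotype Advillin+/+;Rosa26Dach1/+, so both groups carried the Rosa26 allele and the Cre allele alone separated them. Any effect of that allele on Advillin itself therefore cannot be told apart from that of Dach1. The Rosa26Dach1 mice had a mixed C57Bl/6J and CD1 background. The labels give the cells as neurons and glia and do not say whether a replicate was 1 embryo or a pool. The study's figure legend for this comparison gives 4 Control and 4 AD1 OE embryos. The p-values set the difference between the groups against the spread between these libraries. Counts per library ran from 22339059 to 44025625 and were turned into CPM, counts scaled by library size to a common total.

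As a check of the labels, Dach1 averaged 95.9 ± 5.28 CPM in AD1 OE against 32.6 ± 1.64 CPM (SD, n = 4) in Control. Avil, the Advillin gene that carries Cre on 1 allele, averaged 464 ± 12.03 CPM in AD1 OE against 892 ± 35.1 CPM in Control. Both genes separated the groups without overlap. Markers of sensory neurons (8 genes) summed to 6352 to 6864 CPM and markers of glia (7 genes) to 1234 to 1550 CPM over the 8 libraries, and none of these markers was at 0. Markers of spinal cord (8 genes) summed to at most 18.9 CPM. Y-linked genes and Xist showed that AD1 OE replicates 1, 2 and 4 and Control replicate 4 were male and the other 4 libraries female, which the labels do not give. Sex was thus unevenly spread over the groups, and differences within each sex are given for all 9 members.

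Each alpha subunit is 1 long chain of 4 homologous domains, and a short loop in each domain lines the mouth of the pore. The family is known in sensory neurons for a pharmacological split. Most members are blocked by the pufferfish poison tetrodotoxin, but the channels of Scn10a (Nav1.8) and Scn11a (Nav1.9) are resistant to it, and both are hallmarks of nociceptors. Scn9a encodes Nav1.7, the tetrodotoxin-sensitive threshold channel of pain-sensing neurons. Scn1a (Nav1.1) and Scn8a (Nav1.6) are used by myelinated neurons, Nav1.6 being the main channel of the nodes of Ranvier, whereas Scn2a (Nav1.2) and Scn3a (Nav1.3) are abundant in immature neurons. Scn4a (Nav1.4) is the channel of skeletal muscle. Scn7a encodes Nax, a relative that responds to extracellular sodium rather than to voltage and is found in neurons and glia.

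A residue in the pore loop of the first domain is known to set tetrodotoxin sensitivity, an aromatic amino acid allowing block and a serine preventing it. The 30 coding bases around this codon are shown for 8 of the genes because the codon sets apart Scn10a and Scn11a, whose ratio differed between the groups in these data. They were read from the mouse GENCODE M21 transcripts, run 5′ to 3′ on the coding strand and carry the codon in capitals. All 8 stretches were placed by alignment of the translated coding sequences, and that of Scn7a departs from the others right after the codon.
Scn10a: acgcaggacTCCtgggaacggctgtaccag
Scn11a: actcaagacTCCtgggagaagctttatcga
Scn9a: actcaggacTACtgggagaacctttatcaa
Scn8a: actcaggacTACtgggagaacttataccag
Scn3a: actcaagacTACtgggagaacctttaccag
Scn4a: acgcaggacTACtgggagaaccttttccag
Scn7a: acacaggatTACcctgaattactttatcac
Scn2a: actcaagacTTCtgggaaaacctttatcag
The codon TCC for serine stands at codon 356 of Scn10a and codon 358 of Scn11a, counted from the start codon. The other genes shown have TAC for tyrosine, as in Scn9a at codon 362, or TTC for phenylalanine, as in Scn2a at codon 385.

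The coding sequences were also compared over their whole length, since reads from near-identical copies can be misassigned. Identity over the 36 pairs of members ranged from 52.5% to 83.3%. Scn1a, Scn2a, Scn3a and Scn9a, which lie on chromosome 2 with Scn7a, were the closest to each other at 76.4% to 83.3%. Scn10a and Scn11a lie on chromosome 9, Scn8a on chromosome 15 and Scn4a on chromosome 11. Scn7a was the most distant member, at 52.5% to 64.3% identity with the other 8. At a length of 50 bases, windows of transcript sequence that occurred unchanged in another gene made up 6.49% of Scn3a, 5.76% of Scn2a, 4.16% of Scn9a, 4.03% of Scn1a and 1.66% of Scn10a. None was found in Scn7a or Scn11a, and at most 0.072% in Scn4a and Scn8a. Scn9a shares 180 exon bases with the antisense gene Gm13629, which had a mean of only 8.5 counts.

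**Figure D1:**
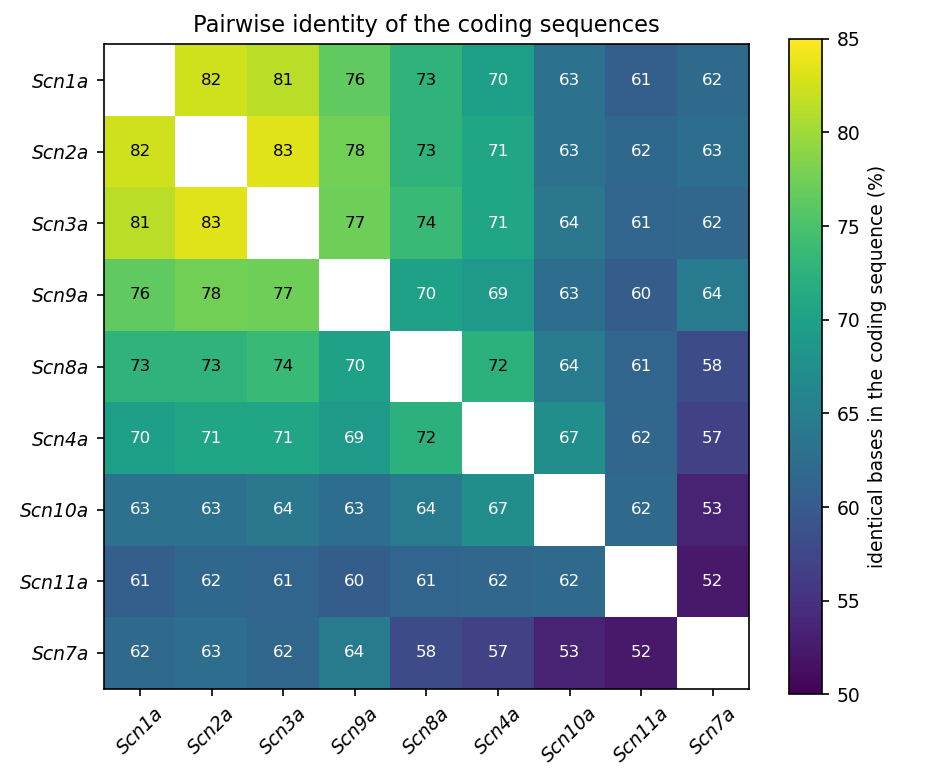
Percentage of identical bases between the coding sequences of each pair of the 9 alpha subunit genes, coloured from 50% to 85%; Scn1a, Scn2a, Scn3a and Scn9a form the block at 76.4% or above, and the pairs with Scn7a reach no more than 64.3%.

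In Control DRG, transcripts of 4 genes made up most of the family. Levels of different genes are compared as CPM per kilobase of exon, with the length taken over the union of all annotated exons. Scn10a was the most abundant at 174 CPM per kilobase on average (161 to 185 over 4 libraries). Scn11a followed at 99.1 ± 7.77 (SD, n = 4) and Scn7a at 90.7 ± 8.28 CPM per kilobase, and the ranges of these neighbours overlapped although Scn11a was ahead in each of the 4 libraries. Scn9a came next at 49.7 ± 3.28 CPM per kilobase, below every Control library of the first 3 genes. The myelinated-neuron channels were far less abundant in this whole-ganglion RNA, with Scn8a at 8.40 ± 0.375 and Scn1a at 7.09 ± 0.575 CPM per kilobase. Scn3a (4.89 ± 0.263) and Scn2a (4.73 ± 0.122) could not be ordered, since their ranges overlapped. Scn4a was the lowest at 0.485 ± 0.116 CPM per kilobase.

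In AD1 OE DRG the order at the top differed. Scn11a was first at 114 ± 7.23 CPM per kilobase, above Scn10a at 98.0 ± 6.83 CPM per kilobase without overlap between the libraries. Scn7a (65.9 ± 5.86) and Scn9a (53.2 ± 3.09) followed, again without overlap. Scn8a stood at 8.52 ± 0.332 CPM per kilobase, while Scn1a (5.79 ± 0.566) and Scn3a (5.06 ± 0.125) now overlapped. Scn2a was at 4.48 ± 0.269 and Scn4a at 0.919 ± 0.208 CPM per kilobase. With the longest transcript as the length, the ranges of Scn10a and Scn11a overlapped in AD1 OE, at 117 and 115 CPM per kilobase with Scn10a ahead in 3 of 4 libraries. The ranges of Scn9a (69.1) and Scn7a (65.9) overlapped as well, with Scn9a ahead in 4 of 4 libraries, so these positions depend on which exons are counted. Under that length Scn10a still led in Control, at 207 against 99.6 CPM per kilobase for Scn11a.

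Expressed as a share of the family's summed CPM per kilobase, Scn10a held 39.7% ± 0.886 in Control and 27.5% ± 0.708 in AD1 OE, and its 4 Control libraries (38.5% to 40.5%) lay far from the AD1 OE libraries (26.4% to 27.9%). Scn11a held 22.5% ± 0.307 in Control and 32.1% ± 0.362 in AD1 OE. Scn9a held 11.3% ± 0.151 and 14.9% ± 0.456, and Scn7a 20.6% ± 0.832 and 18.47% ± 0.766. Shares add up to a whole, so a lower share of Scn10a raises the others and these values are a description. The summed level of the 9 genes was 439 ± 28.9 CPM per kilobase in Control and 356 ± 22.2 in AD1 OE. The pair with the serine codon, Scn10a and Scn11a, made up 78.4% ± 0.324 of the level of the 8 voltage-gated members other than Scn7a in Control and 73.1% ± 0.742 in AD1 OE.

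**Figure D2:**
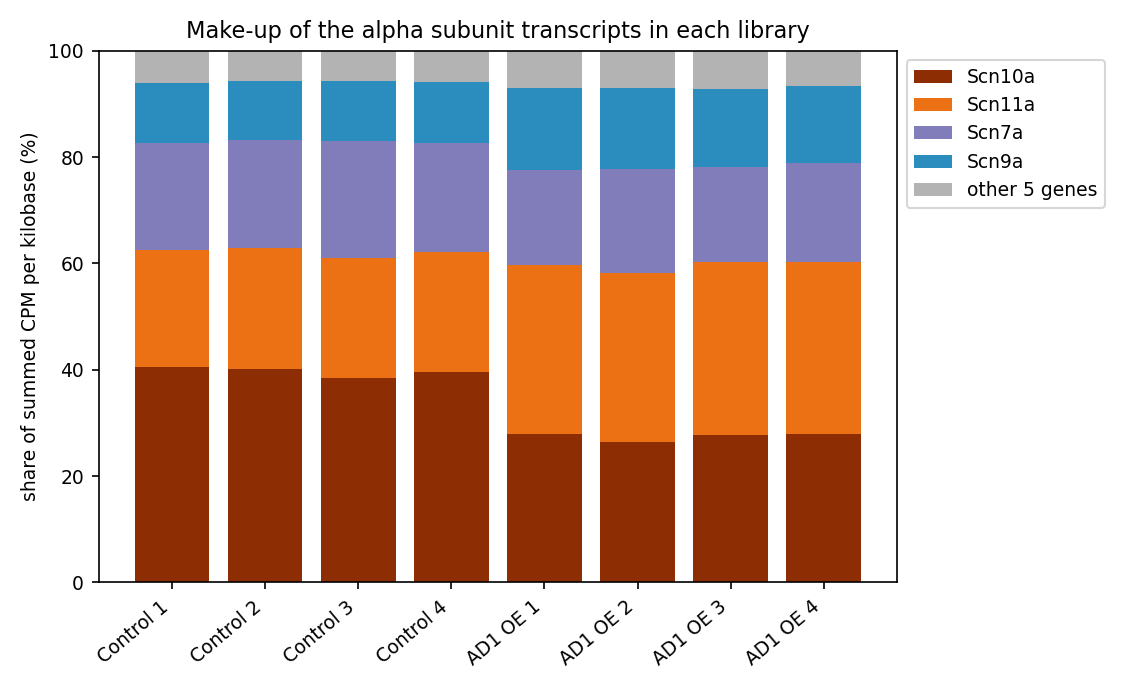
Make-up of the alpha subunit transcripts in each of the 8 libraries, as a percentage of summed CPM per kilobase, with Scn1a, Scn2a, Scn3a, Scn4a and Scn8a joined in grey; Scn10a takes 38.5% to 40.5% of each Control bar and 26.4% to 27.9% of each AD1 OE bar, and Scn11a is the largest block in AD1 OE.

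Against Control, 2 of the 9 members were lower in AD1 OE and 0 were higher at the limits used here (edgeR quasi-likelihood test, adjusted p under 0.005 and absolute log2 fold change over 0.25). The 2 were Scn10a and Scn7a. Of all tested genes, 1.78% were lower and 0.784% higher at these limits, 2.57% in either direction. At an adjusted p under 0.05 without a limit on the fold change, 3 members were lower and 1 was higher, with 4.14% and 2.42% of all tested genes. At an unadjusted p under 0.05, 3 members were lower against 10.3% of all tested genes, and 2 members, Scn4a and Scn11a, were higher against 8.28%. The libraries of the 2 groups did not overlap in 4 members, against 13.0% of all tested genes. AD1 OE lay wholly above Control in 2 of them (5.69% of all tested genes) and wholly below in the other 2 (7.26%). The median log2 fold change of the members was 0.02, and that of all tested genes was 0.00182.

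**Figure D3:**
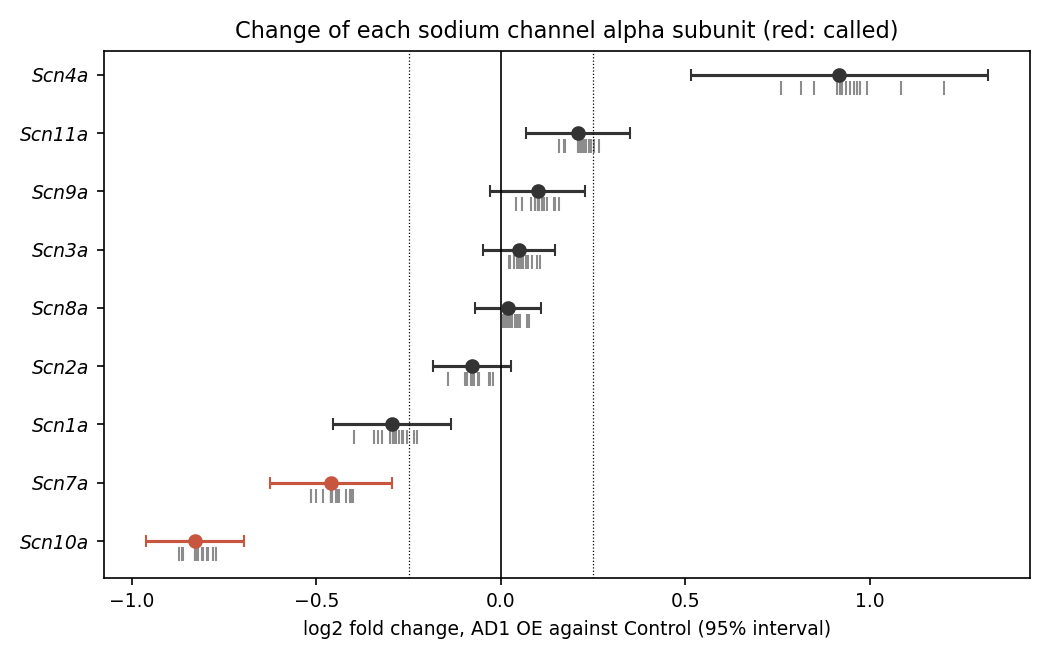
Log2 fold change of each alpha subunit gene in AD1 OE against Control, with its 95% interval from edgeR as the bar, the values under other settings as grey ticks and the limits on the fold change as dotted lines; Scn10a at -0.83 and Scn7a at -0.46 are the called members (red), and the intervals of Scn2a, Scn3a, Scn8a and Scn9a include 0.

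Scn10a, the Nav1.8 gene, fell the most. It was at 1283, 1477, 1397 and 1392 CPM in Control replicates 1 to 4 and at 781, 750, 736 and 858 CPM in AD1 OE replicates 1 to 4. Each AD1 OE library lay well below each Control library, and the mean in AD1 OE was 56.3% of that in Control. The log2 fold change was -0.83 ± 0.06 (SE, 95% interval -0.96 to -0.70, edgeR adjusted p = 6.4e-06). Within the sexes the log2 difference was -0.91 among females and -0.81 among males. Scn10a was called in each of the 8 fits that left out 1 library, with log2 fold changes of -0.87 to -0.79.

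In bulk RNA, fewer cells of a type and less RNA per cell cannot be told apart. On DRG sections of E18.5 AD1 OE embryos, the study counted neurons stained for Islet1, Prdm12, TrkB or TrkC. It reported that the main neuron subtypes were present in appropriate numbers. It also reported a decrease of Calca by staining. Cell numbers were not measured in the data used here. Beside Scn10a, 3 of 7 nociceptor markers were called lower: the neuropeptide genes Calca (log2 fold change -0.70) and Tac1 (-0.88), and the receptor gene Mrgprd of non-peptidergic nociceptors (-0.77). The summed level of the 7 markers was 1226 to 1316 CPM in AD1 OE and 1506 to 1576 CPM in Control, and none of them was at 0. Prdm12, which marks the nociceptor lineage, had a log2 fold change of 0.09 and did not pass the test. The part of these markers in the result was not tested. The markers of all sensory neurons (0 of 8 called), of myelinated neurons (0 of 6) and of glia (0 of 7) had summed levels that overlapped between the groups.

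Scn7a, the gene of the sodium sensor Nax, was the other member that fell. Its values were 586, 684, 731 and 662 CPM in Control and 461, 508, 435 and 530 CPM in AD1 OE. The groups did not overlap, although the highest AD1 OE library and the lowest Control library lay less than the Control SD (60.8 CPM) apart. The mean in AD1 OE was 72.7% of that in Control, a log2 fold change of -0.46 ± 0.08 (SE, 95% interval -0.63 to -0.30, edgeR adjusted p = 0.00276). The difference was -0.62 among females and -0.40 among males. This call lay near the limit of 0.005. It was lost without AD1 OE replicate 1 (edgeR adjusted p = 0.0132), replicate 2 (0.00736) or replicate 3 (0.00538) and without Control replicate 2 (0.011), replicate 3 (0.0102) or replicate 4 (0.00909), the log2 fold change staying between -0.51 and -0.41 in all 8 such fits. It was also lost with the libraries scaled to the counts of sensory neuron (0.00659) or glial markers (0.0637), settings chosen after seeing the data, with log2 fold changes of -0.40 and -0.42.

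**Figure D4:**
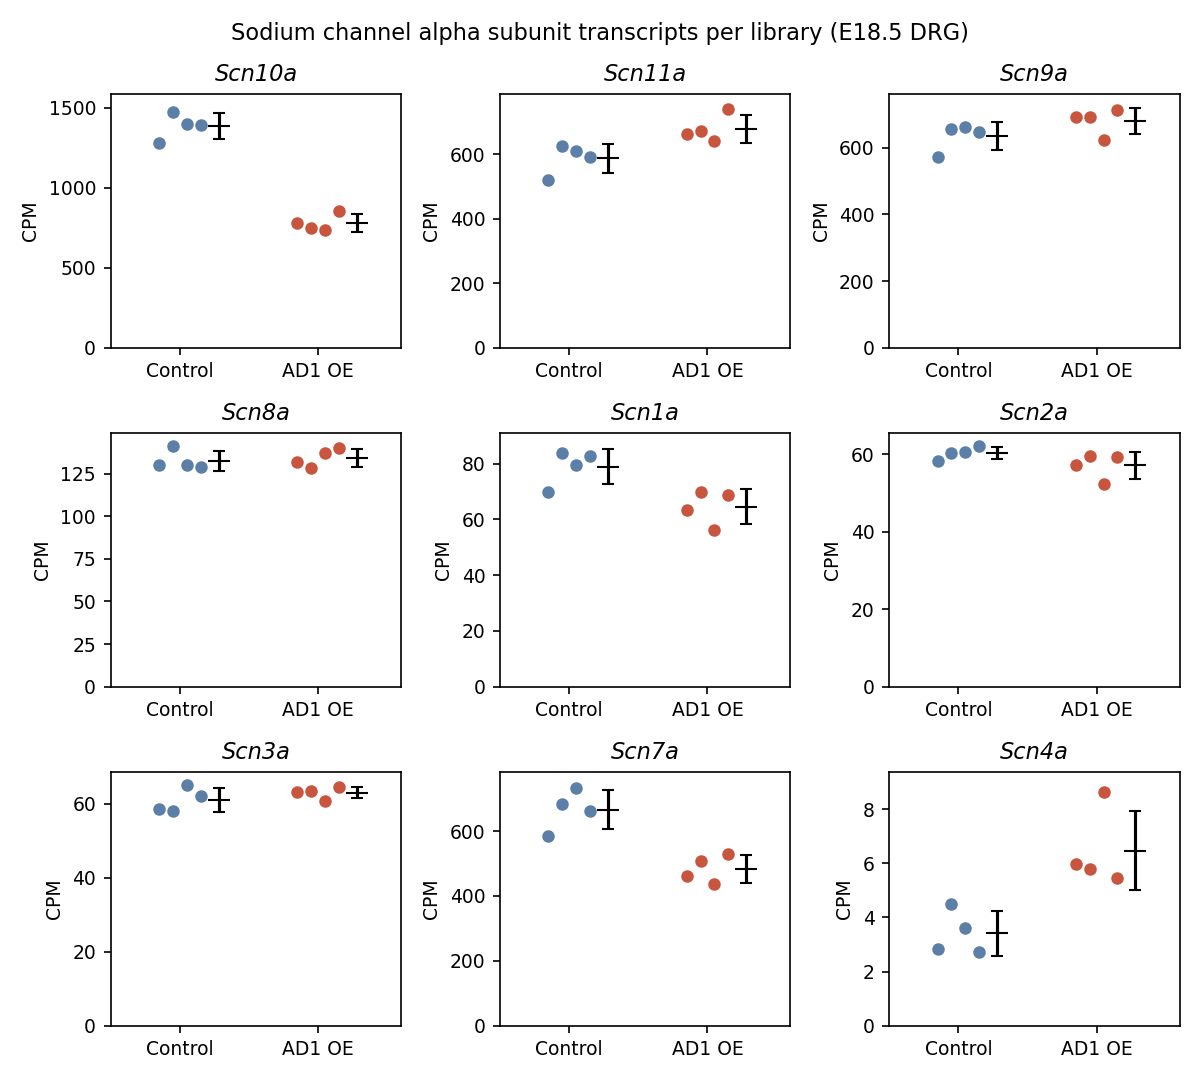
Level of each alpha subunit gene in CPM, with each axis starting at 0, 1 point per library in replicate order and the mean ± SD beside the points; for Scn10a the 4 Control libraries lie at 1283 to 1477 CPM and the AD1 OE libraries at 736 to 858 CPM, Scn7a, Scn11a and Scn4a also separate the groups, and the remaining genes overlap.

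Scn11a, the gene of the persistent-current channel Nav1.9, did not fall with Scn10a although both belong to the tetrodotoxin-resistant pair. It stood at 521, 625, 611 and 593 CPM in Control and at 662, 672, 642 and 740 CPM in AD1 OE. All AD1 OE libraries were above all Control libraries, by a small margin at the nearest points. The log2 fold change of 0.21 ± 0.06 (SE, 95% interval 0.07 to 0.35) had an unadjusted p of 0.00698 and did not pass after adjustment (edgeR adjusted p = 0.0858). The adjusted p was 0.0145 by DESeq2 and 0.0125 by edgeR without a filter on low counts. By edgeR it was 0.0201 with scaling to sensory neuron markers, 0.616 with scaling to glial markers and 0.299 with a score for sex as covariate. Scn11a was called in 0 of the 10 other fits.

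Scn9a, the Nav1.7 gene, was at 573, 656, 663 and 647 CPM in Control and at 692, 692, 623 and 713 CPM in AD1 OE. The groups overlapped through AD1 OE replicate 3, and the log2 fold change was 0.10 (95% interval -0.03 to 0.23, edgeR adjusted p = 0.411). The interval leaves room for a level a little lower or moderately higher, but not for a decrease of the size seen for Scn10a.

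Ratios of counts within a library do not depend on how libraries are scaled, and 3 of them were tested. Counts of Scn10a over those of Scn9a, the resistant over the sensitive main channel of nociceptors, were 2.24, 2.25, 2.11 and 2.15 in Control and 1.13, 1.08, 1.18 and 1.20 in AD1 OE. The ratio was therefore lower in 4 of 4 AD1 OE libraries, with means of 2.19 ± 0.0696 and 1.149 ± 0.0535 and a log2 difference of -0.93 (exact permutation test, two-sided, p = 0.0286, the smallest that 4 against 4 libraries allow, and 0.0429 after adjustment over the 3 ratios).

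Counts of Scn11a over those of Scn10a were 0.406, 0.423, 0.438 and 0.426 in Control and 0.848, 0.896, 0.872 and 0.863 in AD1 OE. The ratio was higher in 4 of 4 AD1 OE libraries, by 1.04 on the log2 scale (exact permutation test, two-sided, p = 0.0286, adjusted p = 0.0429). Within the pair that shares the serine codon shown above, Control ganglia thus held far more Scn10a than Scn11a counts and AD1 OE ganglia nearly as many of the second as of the first. The third ratio, Scn8a over Scn9a, was 0.209 ± 0.0144 in Control and 0.198 ± 0.0155 in AD1 OE, with overlapping libraries and a log2 difference of -0.08 (exact permutation test, two-sided, p = 0.286).

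**Figure D5:**
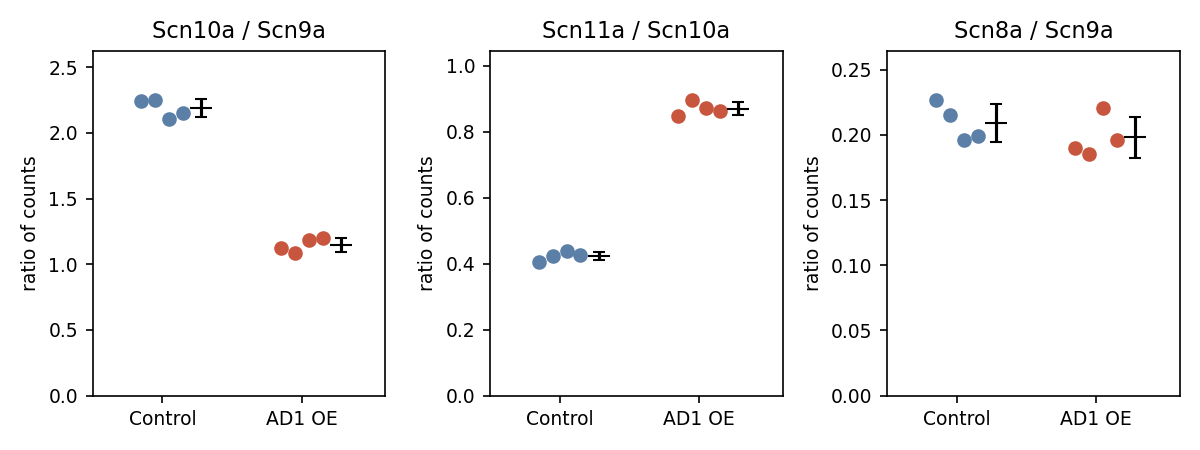
Ratio of counts of Scn10a to Scn9a, Scn11a to Scn10a and Scn8a to Scn9a within each library (1 point per library) with the mean ± SD for Control (blue) and AD1 OE (red), each axis starting at 0; the first ratio is 2.11 to 2.25 in Control and 1.08 to 1.20 in AD1 OE, the second 0.406 to 0.438 and 0.848 to 0.896, and the third overlaps.

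Among the channels of myelinated neurons, Scn1a and Scn8a gave different readings. Scn1a, the Nav1.1 gene, was at 69.8, 84.0, 79.5 and 82.7 CPM in Control and at 63.3, 69.9, 56.1 and 68.7 CPM in AD1 OE. Most AD1 OE libraries were lower, but the highest of them reached the lowest Control library. The log2 fold change was -0.29 ± 0.07 (SE, 95% interval -0.46 to -0.13), with an edgeR adjusted p of 0.0341 that missed the limit of 0.005. DESeq2 called it (adjusted p = 0.00392), as did edgeR without a filter on low counts (0.000304), and over the fits without 1 library the edgeR adjusted p ran from 0.0112 to 0.107.

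Scn8a, the Nav1.6 gene, was at 130, 141, 130 and 129 CPM in Control and at 132, 128, 137 and 140 CPM in AD1 OE. The groups overlapped almost completely. Its log2 fold change was 0.02 with a 95% interval of -0.07 to 0.11 (edgeR adjusted p = 0.853), so that a change of the limit of 0.25 in either direction lay outside the interval. Markers of myelinated mechanoreceptors and proprioceptors summed to 1149 to 1242 CPM in AD1 OE and 1141 to 1233 CPM in Control. Single markers within this sum moved in opposite directions. Nefh was lower (log2 fold change -0.24, edgeR adjusted p = 0.0116) and Ntrk3 higher (0.30, 0.0171), and neither was called.

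The channels of immature neurons were close to Control. Scn2a ranged from 58.2 to 62.0 CPM over the Control libraries and from 52.2 to 59.7 CPM over those of AD1 OE, with a log2 fold change of -0.08 (95% interval -0.18 to 0.03, edgeR adjusted p = 0.425). Scn3a ranged from 58.1 to 65.1 CPM and from 60.9 to 64.5 CPM, with a log2 fold change of 0.05 (95% interval -0.05 to 0.15, edgeR adjusted p = 0.622). For both genes the groups overlapped and the interval stayed within the limit of 0.25.

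Scn4a, the muscle channel gene, was the only member besides Scn11a with all AD1 OE libraries above all Control libraries, and the scarcest. It was at 2.83, 4.49, 3.62 and 2.71 CPM in Control and at 5.99, 5.79, 8.64 and 5.47 CPM in AD1 OE, from 63 to 265 counts per library. The AD1 OE mean was 190% of that of Control, with a log2 fold change of 0.92 ± 0.18 (SE, 95% interval 0.51 to 1.32). It was not called, at an edgeR adjusted p of 0.0102. Without AD1 OE replicate 3 the log2 fold change was 0.76 (edgeR adjusted p = 0.0163). The same library had the highest sum of 8 skeletal muscle markers, 627 CPM, against 123 to 216 CPM in the other AD1 OE libraries and 147 to 400 CPM in Control. None of the 8 muscle markers was called or at 0, and their part in the level of Scn4a was not tested. Scn4a was called by DESeq2 (adjusted p = 6.9e-05), by edgeR without a filter (3.6e-06), with a score for sex as covariate (log2 fold change 1.20, adjusted p = 0.00061), and with scaling to sensory neuron (0.0046) or glial markers (0.000189).

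The effect of genotype was compared between the sexes by an interaction term, although each sex had only 1 library in 1 of the groups. For none of the 9 members did the interaction pass the test (edgeR adjusted p of 0.992 or above), and the difference of the log2 effect, male minus female, was 0.11 ± 0.14 (SE) for Scn10a and 0.21 ± 0.16 for Scn7a. Among the other members the log2 difference in females and in males was 1.25 and 1.08 for Scn4a, -0.47 and -0.30 for Scn1a, and 0.13 and 0.22 for Scn11a. Scn9a had opposite signs, -0.02 in females and 0.11 in males, neither of which was tested alone. The values were -0.19 and -0.08 for Scn2a, 0.01 and 0.04 for Scn3a, and 0.04 and 0.05 for Scn8a.

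Alpha subunits work with partners, and 20 such genes were read beside them. Beta subunits modulate gating and surface level, FGF homologous factors bind the channel's tail, and ankyrin G with its partners anchors channels at the axon initial segment and the nodes. Of the 20 genes, 1 was lower and 2 were higher in AD1 OE at the limits above. Among all tested genes 1.78% were lower and 0.784% higher at these limits. The median log2 fold change of the 20 genes was -0.03.

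Scn4b, the beta subunit linked to resurgent current, was at 42.8, 51.5, 42.4 and 49.9 CPM in Control and at 58.6, 64.2, 62.7 and 63.9 CPM in AD1 OE (log2 fold change 0.41, edgeR adjusted p = 0.0024). The 2 groups did not overlap.

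At an adjusted p under 0.05, 4 partner genes were lower and 2 were higher, against 4.14% and 2.42% of all tested genes. The lower genes included Fgf13 (log2 fold change -0.21, edgeR adjusted p = 0.0105) and Fgf12 (-0.31, 0.0174), both FGF homologous factors. Another was Cntn1 (-0.17, 0.0359), an adhesion molecule that promotes channel surface level. The partner calls were sensitive to single libraries. No partner gene was called lower without AD1 OE replicate 1 or 2 or Control replicate 2 or 4, and the number called higher was 1 without AD1 OE replicate 1, 2 or 4 or Control replicate 1 or 4 and 0 without Control replicate 3.

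Genes whose level followed that of a member most closely were sought among 10722 genes, by Pearson correlation of log2 CPM over the 8 libraries. This is a description, since the libraries share their group and each correlation across them mixes the group difference with the spread within groups. Closest to Scn10a were the carbonic anhydrase-related gene Car8 (r = 0.996), the nicotinic receptor gene Chrna7 (0.996), Tmem164 (0.994), the itch receptor gene Mrgprx1 (0.994) and Abcc8 (0.993), which encodes a subunit of ATP-sensitive potassium channels. All 5 were lower in AD1 OE, Car8 from 24.7 to 9.82 CPM and Mrgprx1 from 166 to 74.0 CPM. Closest to Scn9a were Wdfy2 (0.985), Zbtb37 (0.982), Herc3 (0.981) and Rsbn1 (0.980), with log2 fold changes of 0.07 to 0.13 that did not pass the test. Closest to Scn11a were Unc13b (0.973), Cep350 (0.972), Raph1 (0.972), Hivep3 (0.971) and Slc16a7 (0.970), whose log2 fold changes lay between 0.09 and 0.25. The 3 lists shared no gene.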

How the data were processed

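DRG were dissected at E18.5 from 4 AD1 OE and 4 Control samples, and stranded poly(A) libraries were sequenced. The authors demultiplexed with bcl2fastq 2.20.0.422, aligned reads to GRCm39 with STAR 2.7.8a and assigned them to Ensembl genes with featureCounts 2.0.1, per the submitters' processing notes and the study's methods, and deposited unfiltered, unnormalized counts for each library. The strand setting and the treatment of multi-mapping reads are not given in the sources used here. Each table listed 55414 genes, of which 52081 had a symbol, and 0 lines without a gene.

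Counts were tested with edgeR 4.0.16 (R 4.3.3; TMM scaling, filterByExpr, quasi-likelihood F test, genotype only, p adjusted by Benjamini-Hochberg for all 17721 tested genes). A call needed an adjusted p below 0.005 together with a log2 fold change beyond ±0.25, as in the study. CPM used TMM-scaled library sizes. Ratios were compared by exact permutation over libraries (scipy 1.17.1). Library totals of 22339059 to 44025625 limit counting error mainly for Scn4a. Replicates of a group differed beyond counting noise (chi-square per degree of freedom 4.02 to 11.1). Scripts were tested on simulated data.

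Names, chromosomes, exon lengths and transcripts came from GENCODE M21 (GRCm38), so no coordinates are given. Coding sequences were aligned with mafft 7.526. The named genes were all members, genes of the partner list, Dach1 and Avil, marker genes, and the 5 genes closest to each of Scn9a, Scn10a and Scn11a with a mean of at least 10 CPM, while Fgf12, Fgf13, Cntn1 and single markers were named after their values were seen. Members and lists were chosen with earlier results of these data known. Alternatives were DESeq2 1.42.0, limma-voom (limma 3.58.1), other scalings, filters and thresholds, a replicate block, a sex score (Y-linked genes over Xist) and omission of each library; scaling to marker counts and the sex interaction were added after seeing the data. The study used DESeq2. Some genes these rules name, and 1 coding stretch, are not reported here.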

Additional observations from a re-analysis of the deposited data

Results flagged for a closer look

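In 2 of the 24 sets of 4 libraries checked, 1 library stood apart from the other 3 by Dixon's criterion at the 95% level. About 1 in 20 sets is singled out in this way by chance. Scn4a in AD1 OE was highest in replicate 3 at 8.64 CPM, with 5.47, 5.79 and 5.99 CPM in the others. This library also had the highest summed level of skeletal muscle markers (627 CPM). That sum was 123 to 216 CPM in the other AD1 OE libraries. In Control it was 147 to 400 CPM, with Scn4a at 2.71 to 4.49 CPM. The part of muscle markers in the level of Scn4a was not tested. Scn8a in Control was highest in replicate 2 at 141 CPM, with 129, 130 and 130 CPM in the others. Without that library the log2 fold change of Scn8a was 0.05 (edgeR adjusted p = 0.584).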

How the results depend on the processing

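Scn10a was called lower in each of the 8 fits without 1 library and in each of the 10 other fits. The number of members called lower was 2. It was 3, with Scn1a, under DESeq2, without a filter and at an adjusted p under 0.05, 1 with scaling to sensory neuron or glial counts, 1 to 2 without 1 library, and 0 with a log2 fold change over 1 required at an adjusted p under 0.05. The number called higher was 0, with Scn4a as the 1 under DESeq2, without a filter, with the sex score, with sensory neuron or glial scaling, and at an adjusted p under 0.05. Among the 20 partner genes, 1 was called lower. That number was 2 under DESeq2 and without a filter, 4 at an adjusted p under 0.05, 0 with sensory neuron or glial scaling and with a log2 fold change over 1, and 0 to 1 without 1 library. The number of partner genes called higher was 2. It was 1 with the sex score, 0 with glial scaling and with a log2 fold change over 1, and 0 to 2 without 1 library. The causes were not tested. Over all genes 455 were called, 659 by DESeq2, 747 without a filter, 273 with glial scaling and 289 to 420 without 1 library. The split was 316 lower and 139 higher, but 237 and 205 with sensory neuron scaling.

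With the replicate number as a block, members called stayed at 2 lower and 0 higher and the ratio differences at -0.93, 1.04 and -0.08 on the log2 scale, while partner genes called were 0 lower and 1 higher and all genes called 348. Same-numbered libraries deviated together in 1 of 4 pairs (correlations of -0.07 to 0.34), so the numbers were not taken to pair the samples. Scn4a, at 63 to 265 counts per library, was the member whose level depth limited most.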
